A study of Mus musculus with 8 samples.

Results

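The genes of glycolysis and of the hypoxia response were compared between the resting and the proliferative zone of the mouse growth plate. The list of 37 genes follows glucose from its uptake to the export of lactate, and adds the oxygen sensors, the hypoxia-inducible factors (HIF) and a set of their targets. A gene counted as a member when its symbol stood in the authors' table of named genes, which held for 35 of the 37, out of 43629 genes in the count table. The other two, *Adm* and *Egln3*, were found only through the reference annotation, and their counts are given without being included among the members.

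All groups were Axin2CreERT2;R26RTdTomato mice, in which tamoxifen activates a Cre recombinase in *Axin2*-expressing cells and turns them and their descendants red fluorescent. The mice received 3 daily tamoxifen injections beginning on postnatal day 23 and were killed on postnatal day 30. From frozen sections of 8 μm through the tibia (the methods also name the distal femur), fluorescent resting chondrocytes and non-fluorescent, flattened proliferative chondrocytes lying 50 μm or more from the secondary ossification center were cut out by laser. Mice 1 and 2 were labelled male and mice 6 and 13 female, and each of these 4 animals gave 1 library of each zone, so that n = 4 per zone and 8 libraries in all. Both zones carry the same alleles and the same tamoxifen treatment, and the red label selects the resting cells only as far as the Cre line marks them.

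Glycolysis converts glucose to pyruvate in the cytosol and yields ATP without oxygen, and lactate dehydrogenase then regenerates the NAD+ it needs. Cartilage has no blood vessels, and the growth plate is a classical example of a tissue in which HIF-1α is needed for chondrocytes to survive low oxygen. In the presence of oxygen, prolyl hydroxylases mark the HIF α subunits for destruction through the von Hippel-Lindau protein. When oxygen falls, the α subunits pair with ARNT and bind hypoxia response elements near glycolytic and other target genes.

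Total counts ran from 192882 to 462044 for resting and from 249284 to 631474 for proliferative libraries, so that a count of 0 allows up to 5.97 to 14.7 and 4.81 to 12.4 CPM, respectively. CPM are the counts of a gene relative to the library total scaled by the TMM factor. These limits cover counting error only. Libraries of the resting zone carried more transcripts of blood and bone cells. Summed over each list of 10 markers, osteoclast markers reached 1594 to 4642 CPM in the resting zone against 14.4 to 464 in the proliferative zone, and neutrophil markers 3229 to 4273 against 0 to 586. The 10 osteoblast and osteocyte markers summed to 8632 to 36787 CPM against 620 to 3865 CPM, nearly all of it from the type I collagen genes *Col1a1* (15162 ± 8474 CPM in the resting libraries) and *Col1a2* (7454 ± 2977 CPM). The other 8 had mean levels of 8.27 to 57.0 CPM in the resting libraries, and *Sp7* had the opposite sign (log2 fold change -1.30, adjusted p = 0.0471) and was not called. The chondrocyte markers summed to 7680 to 19756 CPM in the resting libraries and 35527 to 60736 in the proliferative libraries, and 9 of the 15 tested were called higher in the proliferative zone, with a median log2 fold change of -1.91. Markers of later chondrocyte stages did not move as 1 group. Of the 10 prehypertrophic and hypertrophic markers, 9 passed the filter. *Panx3* (log2 fold change -4.78) and *Col10a1* (-4.28) were called higher in the proliferative zone, as was *Ihh*, with 0 resting counts, in the fit over all genes with a count, whereas *Mmp13* (4.66) and *Spp1* (3.54) were called higher in the resting zone. In bulk tissue, fewer cells of a type and less RNA per cell cannot be told apart, and the part that this difference in composition plays in the results on the members was not tested. Counts on *Tsix* exceeded those on its opposite-strand partner *Xist* in the libraries labelled female, with 18683 against 1367 counts, and the strand setting of the counting is not given in the sources used here. Counts on a gene, the members included, may therefore hold reads from the opposite strand. They may also miss a large part of the gene's own reads. How far this holds for each member was not tested, so the CPM below describe the counts assigned to a gene, not its full level.

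Several steps of the glycolytic chain were higher in the proliferative zone, and others were not called in either direction. Of the 35 members, 24 passed the filter on low counts. By edgeR's quasi-likelihood test, with a Benjamini-Hochberg adjusted p below 0.01 and a log2 fold change beyond 1 in either direction, 12 members were called higher in the proliferative zone, where 6.93% of the 3793 genes tested were called in that direction. In the resting zone 1 member, *Epas1*, was called higher, against 11.0% of all genes tested. With mice as a replicate block, the numbers were 9 and 1, with 6.06% and 10.2% of all genes called. The median log2 fold change, given throughout as resting over proliferative, was -1.30 over the 24 members and 0.08 over all genes tested. *Slc2a1*, *Pfkfb3*, *Pgk1*, *Slc16a3*, *Bnip3*, *Egln1* and *Higd1a* passed the filter through the proliferative zone, in which they were high. *Epas1* passed through the resting zone. The counts called and the median are thus in part set by the filter and are given as a description. Together the members took 0.257% to 0.280% of all counts in the resting libraries and 0.394% to 0.554% in the proliferative libraries. The choice of scaling moved the balance between the directions for all genes. Of all calls, 61.4% were higher in the resting zone, which became 48.6% with upper quartile factors and 69.5% without scaling factors, as the median of all genes shifted by -0.22 and 0.12, respectively.

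**Figure D1:**
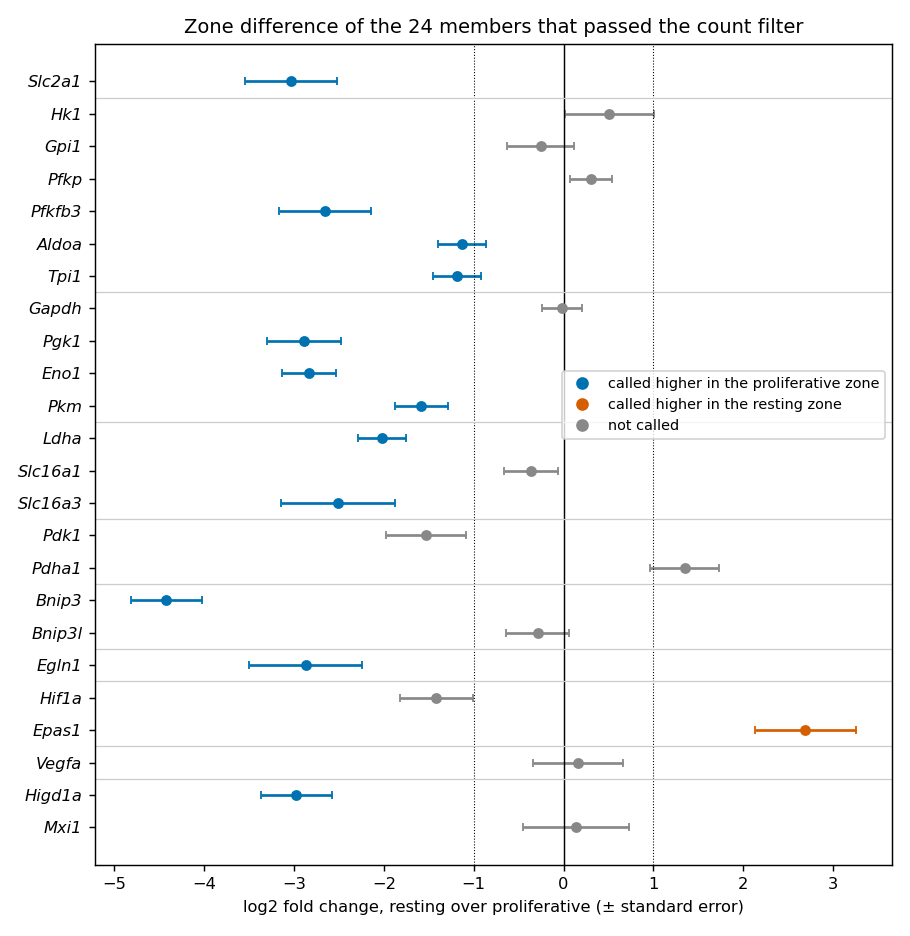
Log2 fold change of resting over proliferative zone for the 24 members that passed the count filter, in the order of the pathway from glucose uptake at the top. Points are edgeR estimates over 4 libraries per zone, bars are standard errors, dotted lines mark a log2 fold change of 1 in each direction, and colors show the call. The 12 blue genes lie between -4.42 and -1.13, while *Epas1* is the single gene called on the resting side, at 2.69.

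To show the sequence in front of the genes that differed with the lowest adjusted p-values, promoter windows from RefSeq (GRCm38.p6), running from 250 bases before to 50 bases after a transcription start, were searched for the core letters of the hypoxia response element. The letters ACGTG and GCGTG were searched on both strands, so CACGT and CACGC count as well, and overlapping matches count once. ACGTG can also form part of the E-box CACGTG, to which other factors bind. The windows lie at chr7:138909457-138909756, minus strand (*Bnip3*), chr4:150236458-150236757, plus strand (*Eno1*), chr7:46845554-46845853, plus strand (*Ldha*), chr9:121857747-121858046, minus strand (*Higd1a*) and chrX:106186850-106187149, plus strand (*Pgk1*). They are written 5′ to 3′ on the strand of the gene, with matches in capitals, and for *Eno1* and *Ldha*, which have several windows, the one with the most matches or the first of equals is shown.
Bnip3: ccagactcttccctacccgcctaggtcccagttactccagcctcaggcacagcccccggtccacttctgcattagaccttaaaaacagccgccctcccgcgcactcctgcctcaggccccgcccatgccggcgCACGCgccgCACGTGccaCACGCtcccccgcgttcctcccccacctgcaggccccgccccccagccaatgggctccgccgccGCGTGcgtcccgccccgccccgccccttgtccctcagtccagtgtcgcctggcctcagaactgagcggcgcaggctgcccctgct
Eno1: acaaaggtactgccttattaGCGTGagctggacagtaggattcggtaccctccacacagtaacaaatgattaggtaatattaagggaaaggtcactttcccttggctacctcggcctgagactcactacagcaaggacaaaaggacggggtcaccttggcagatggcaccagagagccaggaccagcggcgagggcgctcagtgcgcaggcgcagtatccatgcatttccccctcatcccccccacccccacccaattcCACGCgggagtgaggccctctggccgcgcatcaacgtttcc
Ldha: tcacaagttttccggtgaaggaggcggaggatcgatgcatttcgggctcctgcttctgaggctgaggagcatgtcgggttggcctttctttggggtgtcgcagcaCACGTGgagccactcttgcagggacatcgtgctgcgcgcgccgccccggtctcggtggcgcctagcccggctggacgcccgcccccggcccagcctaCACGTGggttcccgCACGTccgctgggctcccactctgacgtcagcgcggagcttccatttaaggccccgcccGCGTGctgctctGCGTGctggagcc
Higd1a: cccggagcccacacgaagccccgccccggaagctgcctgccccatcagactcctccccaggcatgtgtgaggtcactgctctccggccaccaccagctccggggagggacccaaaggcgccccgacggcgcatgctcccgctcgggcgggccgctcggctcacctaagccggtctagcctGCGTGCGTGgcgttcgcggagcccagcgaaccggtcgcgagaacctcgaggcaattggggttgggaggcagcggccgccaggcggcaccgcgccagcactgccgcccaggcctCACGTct
Pgk1: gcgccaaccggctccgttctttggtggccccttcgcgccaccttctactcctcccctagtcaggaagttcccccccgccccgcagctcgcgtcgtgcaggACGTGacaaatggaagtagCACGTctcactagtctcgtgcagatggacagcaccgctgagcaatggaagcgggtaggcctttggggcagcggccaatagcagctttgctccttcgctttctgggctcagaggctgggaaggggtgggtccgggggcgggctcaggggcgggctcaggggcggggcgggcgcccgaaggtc
The windows hold 4 separate matches for *Bnip3*, 2 for *Eno1*, 5 for *Ldha*, 2 for *Higd1a* and 2 for *Pgk1*. The *Bnip3* window includes 1 CACGTG and the *Ldha* window 2.

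A window was found for 31 of the 35 members, the missing ones being *Epas1*, *Slc2a3*, *Bnip3l* and *Ndrg1*. At least 1 match occurred in 28 of the 31 (90.3%), compared with 69.9% of the tested genes with a window and 46.7% of all genes with one. As genes may have several windows, the share was also taken per window, and was 78.7% for members, 63.3% for tested genes and 43.8% for all genes. For ACGTG alone, the share of windows was 51.1%, 27.4% and 19.6%. Median GC content was 62.3% in the members' windows, 61.7% in those of tested genes and 52.7% in all windows. Among the members called higher in the proliferative zone, 11 of 12 held a match, and among the remaining members with a window 17 of 19 did. For ACGTG alone these were 10 of 12 (63.2% of windows) and 10 of 19 (42.9% of windows). The 12 are the calls above the filter, so *Pgam1*, called only without it and holding a match and ACGTG, is among the 19. Matching letters are common in promoters and do not show that a factor binds.

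Glucose enters chondrocytes through facilitative transporters. *Slc2a1*, which encodes GLUT1, measured 6.08, 25.4, 7.96 and 9.81 CPM in the resting libraries and 58.2, 85.6, 112 and 153 CPM in the proliferative libraries of mice 1, 2, 6 and 13, an order kept for all values listed by library. Every proliferative library exceeded every resting one. The log2 fold change was -3.03 (SE 0.51, adjusted p = 0.000942), and -3.67 without the resting library of mouse 2. *Slc2a3*, encoding the high-affinity transporter GLUT3, had 23 counts in total, of which 1, 8, 5 and 5 fell in the resting libraries and 4 in the proliferative library of mouse 6. It did not pass the filter, and in the fit over all 17492 genes with a count its log2 fold change was 2.61 (SE 1.09, adjusted p = 0.107). Without the proliferative library of mouse 6 the adjusted p was 0.0177, still outside the call. The fitted value was then 5.47, which depends on the prior count because the other proliferative libraries had 0 counts. The zones overlapped for *Slc2a3*.

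The hexose phase, in which glucose is phosphorylated and split into triose phosphates, was uneven. Of its 11 members, 6 passed the filter and 3 were called, all higher in the proliferative zone, against 6.93% of all genes tested. *Pfkfb3*, which makes the fructose 2,6-bisphosphate that activates phosphofructokinase, measured 6.08, 9.51, 19.9 and 19.6 CPM in the resting zone of mice 1, 2, 6 and 13. In their proliferative zone it measured 42.7, 73.6, 135 and 104 CPM. The zones did not overlap, and the log2 fold change was -2.65 (SE 0.51, adjusted p = 0.00199). The aldolase gene *Aldoa* stood at 155, 130, 175 and 157 CPM in the resting libraries and at 283, 324, 255 and 502 CPM in the proliferative libraries. The triose phosphate isomerase gene *Tpi1* stood at 72.9, 91.9, 103 and 93.2 CPM and at 161, 207, 200.2 and 261 CPM. Both were separated between the zones by about the same ratio, with log2 fold changes of -1.13 (SE 0.27, adjusted p = 0.00712) and -1.19 (SE 0.27, adjusted p = 0.00501).

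These calls for *Aldoa* and *Tpi1* lay close to the threshold. In the fit blocked by mouse their adjusted p-values were 0.0156 and 0.0111, and without scaling factors they were 0.0140 and 0.0115. For *Aldoa*, leaving out the resting library of mouse 1, 2 or 13 or the proliferative library of mouse 2 or 13 gave 0.0195, 0.0194, 0.0170, 0.0137 and 0.0158. For *Tpi1*, leaving out the resting library of mouse 1, 2 or 13 or the proliferative library of mouse 2, 6 or 13 gave 0.0169, 0.0107, 0.0105, 0.0127, 0.0101 and 0.0129. *Tpi1* shares 34 exonic bases with the opposite-strand gene *Spsb2*, which held 20 counts in the resting and 236 in the proliferative libraries. Adding those counts gave -1.67 (adjusted p = 0.000457).

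The remaining hexose-phase members that passed the filter differed by less than the call requires. *Pfkp*, the platelet-type phosphofructokinase, measured 829, 875, 525 and 805 CPM in the resting libraries and 608, 510.2, 559 and 779.7 CPM in the proliferative libraries, with a log2 fold change of 0.31 (SE 0.24, adjusted p = 0.366). The ranges overlapped. The hexokinase gene *Hk1* had a log2 fold change of 0.51 (SE 0.49, adjusted p = 0.475), and the glucose phosphate isomerase gene *Gpi1* one of -0.25 (SE 0.37, adjusted p = 0.651). Without the resting library of mouse 6, *Hk1* was at -0.090, and without both libraries of that mouse at -0.26. *Gpi1* overlaps the opposite-strand transcript *Gm26762* (176 counts) and *Pfkp* overlaps *Pitrm1* (96 counts), and with the partner counts added their log2 fold changes were -0.36 and 0.30.

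The other 5 members of the hexose phase had few counts. *Hk2*, an inducible hexokinase, had 0, 1, 3 and 2 counts in the resting libraries and 8, 16, 29 and 4 in the proliferative ones, with a log2 fold change of -2.73 (SE 0.82, adjusted p = 0.0112) over all genes with a count. *Aldoc* had 7, 0, 2 and 0 against 13, 15, 11 and 12 counts (log2 fold change -2.27, adjusted p = 0.0307, and -3.92 without the resting library of mouse 1). Neither was called, but without the resting library of mouse 6 or 13 *Hk2* was, with adjusted p-values of 0.00689 and 0.00607, and without that of mouse 1 *Aldoc* was, with 0.00244. The highest adjusted p-values with a library left out were 0.149 for *Hk2* (-2.29, without the proliferative library of mouse 6) and 0.136 for *Aldoc* (-2.02, without that of mouse 13). *Pfkfb4*, a relative of *Pfkfb3*, went the other way, with 2, 5, 7 and 1 counts in the resting zone and 0 in every proliferative library. Its resting level was 7.27-fold higher when 3 counts over the proliferative libraries were taken as the limit. This leaves out the counting error on the 15 resting counts, so it is not a lower bound. Its adjusted p of 0.0154 did not reach the call, and was 0.0633 in the fit blocked by mouse. *Pfkl* had 66 counts, of which 22 lay in the resting library of mouse 6, and a log2 fold change of -0.75 (adjusted p = 0.520), which was -3.30 (adjusted p = 0.0144) without that library. *Pfkm*, with 36 counts, had one of -0.07 (adjusted p = 0.969), and of -1.59 (adjusted p = 0.0147) after addition of its opposite-strand partner *Senp1* (147 counts).

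*Gapdh*, *Pgk1*, *Eno1*, *Ldha* and other glycolytic genes have near-identical processed pseudogenes in the mouse genome, and how reads that match several loci were treated is not given in the sources used here, so their levels are uncertain to that extent. The triose phase yields the ATP, and its tested members had a median log2 fold change of -2.21, against -0.69 in the hexose phase. Of its 5 members, 4 passed the filter and 3 were called higher in the proliferative zone. *Eno1*, the main enolase, measured 72.9, 72.9, 65.7 and 29.4 CPM in the resting libraries and 466, 346, 434 and 514 CPM in the proliferative libraries of mice 1, 2, 6 and 13. *Pgk1*, the phosphoglycerate kinase that makes the first ATP of this phase, measured 18.2, 19.0, 41.8 and 19.6 CPM and 136, 163, 167 and 315 CPM. In both genes the highest resting library lay far below the lowest proliferative one. Log2 fold changes were -2.83 (SE 0.30, adjusted p = 9.84e-05) for *Eno1* and -2.89 (SE 0.41, adjusted p = 0.000387) for *Pgk1*.

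*Pkm*, the pyruvate kinase gene, measured 100.2, 162, 189 and 172 CPM in the resting libraries and 417, 438, 336 and 688 CPM in the proliferative libraries. The zones were separate and the log2 fold change was -1.58 (SE 0.29, adjusted p = 0.00154). *Gapdh*, which encodes the dehydrogenase between *Tpi1* and *Pgk1* in the chain and is often used as a reference gene, measured 261, 216, 269 and 196 CPM in the resting libraries and 225, 233, 227 and 274 CPM in the proliferative libraries. It was higher in the resting zone in 2 mice and lower in the other two, with a log2 fold change of -0.02 (SE 0.22, adjusted p = 0.967). Its sign changed without scaling factors, where the estimate was 0.11. The phosphoglycerate mutase gene *Pgam1* did not pass the filter, with 3, 1, 0 and 0 counts in the resting and 13, 15, 38 and 9 in the proliferative libraries. In the fit over all genes with a count it was called higher in the proliferative zone, at -3.71 (SE 0.81, adjusted p = 0.000137), and without the proliferative library of mouse 6 the adjusted p was 0.0102. Without the resting library of mouse 1 the estimate was -5.03. In that fit, 2.68% of all genes were called higher in the proliferative and 4.74% in the resting zone, and *Pgam1* was the single call among the 11 members below the filter.

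**Figure D2:**
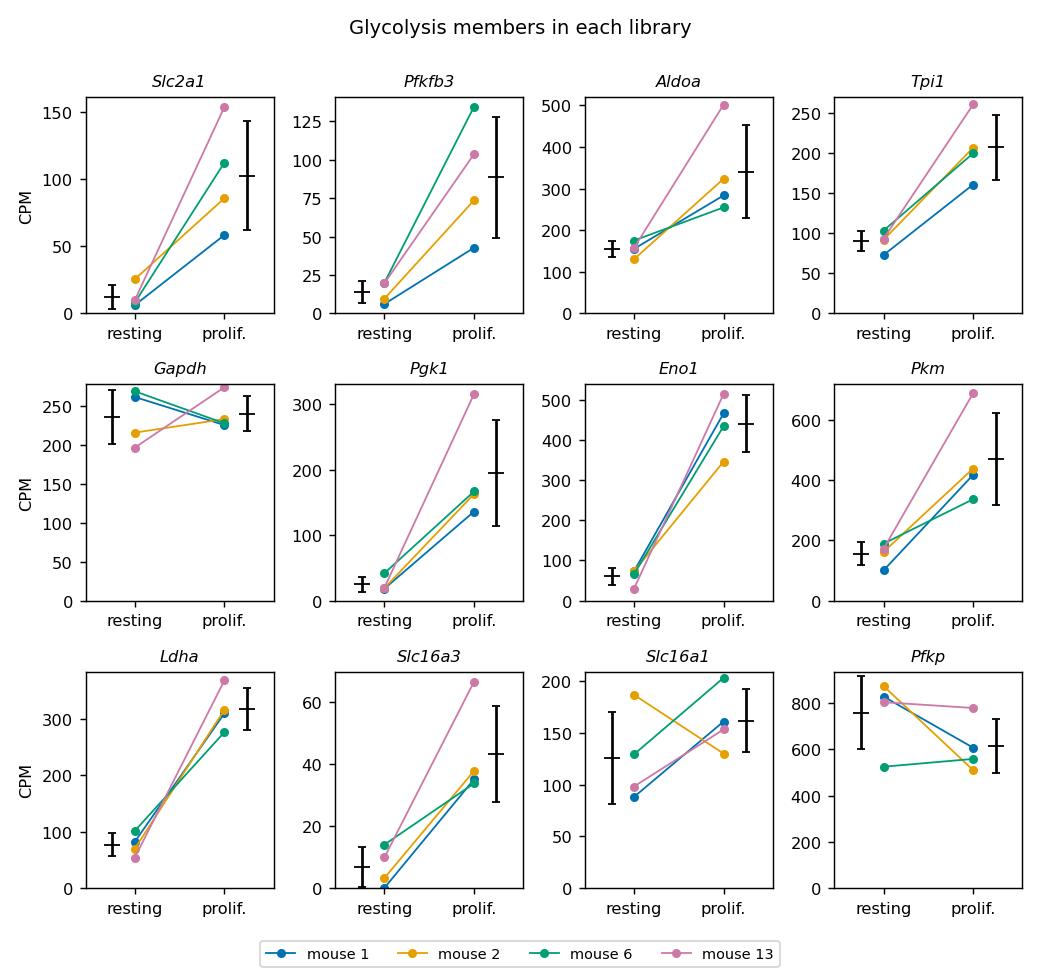
Level of 12 glycolysis members in CPM (linear axis from 0) in the resting and proliferative library of each mouse, joined by a line. Black bars beside the points give the mean and SD of 4 libraries. *Eno1*, *Pgk1* and *Ldha* rise in all 4 mice with no overlap between the zones, while the lines of *Gapdh*, *Slc16a1* and *Pfkp* cross or lie level.

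Lactate is formed from pyruvate by lactate dehydrogenase and leaves the cell through monocarboxylate transporters. *Ldha*, whose subunit favors lactate formation, measured 82.0, 69.7, 101 and 54.0 CPM in the resting libraries and 311, 317, 277 and 369 CPM in the proliferative libraries. The zones did not overlap, and the log2 fold change was -2.02 (SE 0.27, adjusted p = 0.000278). *Ldhb*, the subunit typical of oxidative tissue, had 16 counts in all, 11 of them in the resting library of mouse 6, with a log2 fold change of 2.04 (SE 1.25, adjusted p = 0.332) that fell to 0.29 without that library and was 2.81 without the proliferative library of mouse 6.

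*Slc16a3*, encoding the lactate exporter MCT4, measured 0, 3.17, 13.9 and 9.81 CPM in the resting libraries and 34.9, 37.7, 33.6 and 66.4 CPM in the proliferative libraries. The zones were separate, with a log2 fold change of -2.51 (SE 0.64, adjusted p = 0.00961). This call depended on the setting and on single libraries. The blocked fit gave an adjusted p of 0.0174, and the fit without scaling factors 0.0141. Leaving out the resting library of mouse 1, 2 or 13 gave 0.0230, 0.0299 and 0.0202, and leaving out the proliferative library of mouse 1, 2, 6 or 13 gave 0.0146, 0.0228, 0.0170 and 0.0315. Without the resting library of mouse 6 the call held and the log2 fold change was -3.43. *Slc16a1*, encoding the widely expressed MCT1, measured 88.1, 187, 129 and 98.1 CPM in the resting libraries and 161, 130.1, 203 and 153 CPM in the proliferative libraries. The ranges overlapped and the log2 fold change was -0.36 (SE 0.30, adjusted p = 0.402).

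Over the whole route from uptake to lactate transport, 14 of 22 members passed the filter, 9 were called higher in the proliferative zone and 0 in the resting zone. With the replicate block, 6 of the 9 remained, against 6.06% of all genes tested. The summed level of the 18 enzymes, lactate dehydrogenases included, was 1765 ± 76.4 CPM (SD, n = 4) in the resting libraries and 3189 ± 639 CPM in the proliferative libraries, a ratio of 1.81. *Pfkp* made up much of the resting sum, and without it the ratio was 2.56 (1006 ± 150.0 against 2575 ± 529 CPM). That sum was added after the data were seen. Without *Gapdh* and *Aldoa* the ratio was 1.90 (1375 ± 83.7 against 2608 ± 511 CPM).

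Pyruvate that does not become lactate enters the mitochondrion through pyruvate dehydrogenase, which pyruvate dehydrogenase kinase switches off. The kinase gene *Pdk1* measured 36.5, 12.7, 45.8 and 19.6 CPM in the resting libraries and 87.4, 66.8, 129.7 and 58.1 CPM in the proliferative libraries. *Pdha1*, for the catalytic subunit, measured 194, 285, 105 and 216 CPM and 130.1, 56.5, 51.3 and 74.7 CPM. The zones did not overlap for *Pdk1* and did for *Pdha1*, and in all 4 mice *Pdk1* was lower and *Pdha1* higher in the resting zone. Log2 fold changes were -1.53 (SE 0.45, adjusted p = 0.0203) and 1.35 (SE 0.39, adjusted p = 0.0184), so neither was called by the quasi-likelihood test over the genes that passed the filter, while both were by the likelihood ratio test (0.00420 and 0.00521). Without the filter the quasi-likelihood test called *Pdk1*, at -1.76 (adjusted p = 0.00315). Without the resting library of mouse 6 both were, with adjusted p-values of 0.00929 and 0.00534, and without the proliferative library of mouse 1 *Pdha1* was, with 0.00682. *Pdha1* shares 603 exonic bases with *Map3k15* on the other strand, which held 3319 counts against 401 on *Pdha1*, and the sum of both had a log2 fold change of 0.19 (adjusted p = 0.580).

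Among the members that sense oxygen, *Epas1* was called higher in the resting zone and *Egln1* in the proliferative zone, while *Hif1a*, *Arnt* and *Vhl* were not called. *Epas1*, which encodes HIF-2α, a subunit prominent in endothelial cells, measured 72.9, 41.2, 103 and 68.7 CPM in the resting libraries and 19.4, 1.71, 11.2 and 12.4 CPM in the proliferative libraries. Every resting library exceeded every proliferative one, and the log2 fold change was 2.69 (SE 0.56, adjusted p = 0.00335). Without the proliferative library of mouse 2, 6 or 13 the adjusted p was 0.0102, 0.0147 or 0.0144, and without both libraries of mouse 6 it was 0.0167. Of the 10 listed endothelial markers, 1 passed the filter, *Egfl7*, and was not called (log2 fold change 0.35, adjusted p = 0.416). Of the 9 below the filter, 6 were called in the fit without a filter, each toward the resting zone. *Pecam1*, *Flt1* and *Kdr*, which had 0 counts in every proliferative library, were among the 6, and *Plvap*, *Tek* and *Esam* were not. The 10 summed to 280 to 450 CPM in the resting and 80.1 to 118 CPM in the proliferative zone, and their part in the *Epas1* difference was not tested.

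*Hif1a*, encoding HIF-1α, measured 103, 22.2, 117 and 103 CPM in the resting libraries and 190.3, 308, 235 and 191 CPM in the proliferative libraries. The zones were separate in all 4 mice, and the log2 fold change was -1.42 (SE 0.41, adjusted p = 0.0184), which did not reach the call. It was called by the quasi-likelihood test without the filter, at -1.64 (adjusted p = 0.000172), and with the likelihood ratio test (adjusted p = 0.00376), DESeq2 (0.00447) and upper quartile factors (0.00876). *Arnt*, for the shared β subunit, had 82 counts, 25 of them in the resting library of mouse 6, and a log2 fold change of -0.58 (adjusted p = 0.559), which was -1.79 (adjusted p = 0.102) without that library. *Hif1a* overlaps the antisense transcript *Gm15283* (31 counts), with which its estimate was -1.41.

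*Egln1*, encoding PHD2, the main oxygen sensor that tags HIF-1α and itself a HIF target, measured 0, 9.51, 7.96 and 24.5 CPM in the resting libraries and 50.5, 73.6, 60.9 and 99.5 CPM in the proliferative libraries. The zones did not overlap, and the log2 fold change was -2.87 (SE 0.63, adjusted p = 0.00429). Without the resting library of mouse 2 or the proliferative library of mouse 2 or 13, the adjusted p was 0.0108, 0.0124 or 0.0132, and without the resting library of mouse 13 the log2 fold change was -3.51. *Vhl*, which recognizes the hydroxylated subunit, had 44 counts and a log2 fold change of -0.19 (adjusted p = 0.909). *Egln3*, outside the rule, had 0 counts in the resting zone and 2 and 2 in the proliferative libraries of mice 6 and 13.

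The largest difference among the 24 members that passed the filter was that of *Bnip3*, a HIF target whose product sits in the outer mitochondrial membrane and promotes the removal of mitochondria. It measured 6.08, 19.0, 11.9 and 4.91 CPM in the resting libraries and 225, 235, 207 and 299 CPM in the proliferative libraries. Every proliferative library lay far above every resting one, with a log2 fold change of -4.42 (SE 0.39, adjusted p = 5.01e-05), equal to 21.4-fold. *Bnip3l*, its paralog with a like role, measured 131, 146, 85.5 and 49.1 CPM and 97.1, 164, 127 and 116 CPM. Its zones overlapped, and the log2 fold change was -0.28 (SE 0.35, adjusted p = 0.584).

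*Higd1a*, a HIF target whose product associates with the respiratory chain, measured 18.2, 31.7, 11.9 and 14.7 CPM in the resting libraries and 128, 164, 117 and 199 CPM in the proliferative libraries. The zones were far apart, and the log2 fold change was -2.97 (SE 0.39, adjusted p = 0.000291). For *Vegfa*, *Mxi1* and *Ndrg1*, also listed as HIF targets, the zones overlapped. *Vegfa*, the angiogenic factor, had a log2 fold change of 0.16 (SE 0.50, adjusted p = 0.843), with 15.2 to 58.9 CPM in the resting and 22.4 to 41.5 CPM in the proliferative zone. *Mxi1*, a MYC antagonist, had one of 0.14 (SE 0.59, adjusted p = 0.889). *Ndrg1* had 35 counts and a log2 fold change of 0.34 (adjusted p = 0.842), which was -0.32 without the resting library of mouse 13, while its opposite-strand partner *Gm17035* held 417, and the sum of both gave -0.24. *Adm*, outside the rule and encoding adrenomedullin, had 2, 0, 1 and 0 counts in the resting and 0, 4, 0 and 0 in the proliferative libraries.

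**Figure D3:**
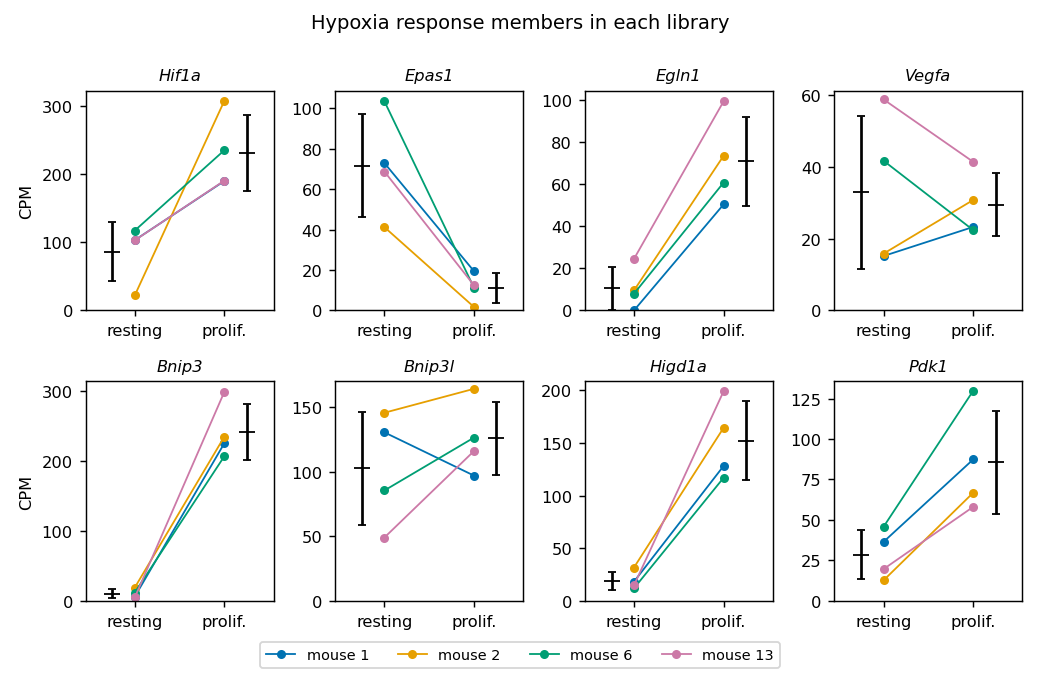
Level of 8 members of the hypoxia response in CPM (linear axis from 0) in the resting and proliferative library of each mouse, joined by a line. Black bars give the mean and SD of 4 libraries. *Bnip3*, *Higd1a* and *Egln1* are higher in the proliferative library of every mouse and *Epas1* is lower, while the zones overlap for *Vegfa* and *Bnip3l*.

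Zones that do not overlap were more frequent than calls. The proliferative libraries all exceeded the resting ones for 14 of the 24 members, namely the 12 called genes with *Pdk1* and *Hif1a*, where 15.1% of all genes tested showed this. The reverse held for 1 member, *Epas1*, against 17.8% of all genes tested. These numbers, too, are a description, as several members passed the filter through the zone in which they were high. Exons of 14 of the 35 members overlap an exon of a gene on the opposite strand, and 9 of these partners held 10 or more counts, the smallest being *Slc2a1* with *Gm12868* (19 counts) and *Gapdh* with *Iffo1* (18 counts). Adding partner counts changed 0 calls. For *Bnip3* and *Higd1a*, the opposite-strand partners *Gm45507* and *Gm47112* have no row in the count table used here.

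To ask whether related members differed by unlike amounts, the log2 ratio of 2 genes was taken within each library, after adding 0.5 to the counts, which removes any scaling factor. Of 12 pairs, 4 had both genes above the filter, and the zones did not overlap in any of these 4. The ratio *Bnip3* over *Bnip3l* was -3.13 ± 0.66 (SD, n = 4) in the resting libraries and 0.94 ± 0.40 in the proliferative libraries, a difference of -4.07. For *Hif1a* over *Epas1*, the ratio was 0.10 ± 0.65 and 4.54 ± 1.64, a difference of -4.44. The 2 subunit genes were thus close to each other in counts in the resting zone, and *Hif1a* exceeded *Epas1* in the proliferative zone. *Pdk1* over *Pdha1* gave -2.80 ± 1.34 and 0.16 ± 0.85, a difference of -2.96, and of -1.79 with the counts of *Map3k15* added to *Pdha1*. *Slc16a3* over *Slc16a1* gave -4.34 ± 1.47 and -1.92 ± 0.59, a difference of -2.42. As *Slc16a3* had 0 counts in the resting library of mouse 1, that value depends on the amount added, and with 2 added to the counts it was -1.57 (exact p = 0.0571). For each pair the exact permutation test over 70 splits gave a two-sided p = 0.0286, the smallest possible with 4 against 4, and the same value after Benjamini-Hochberg adjustment over the 4 pairs. However, 1 gene of each pair (*Slc16a3*, *Pdk1*, *Bnip3* or *Epas1*) passed the filter through the zone in which it was high, so the pairs were chosen in part by the difference itself, and the ratios are a description that these p-values do not strengthen. Each ratio was lower in the resting zone in 4 of 4 mice, for which the exact within-mouse test cannot give a p below 0.125.

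**Figure D4:**
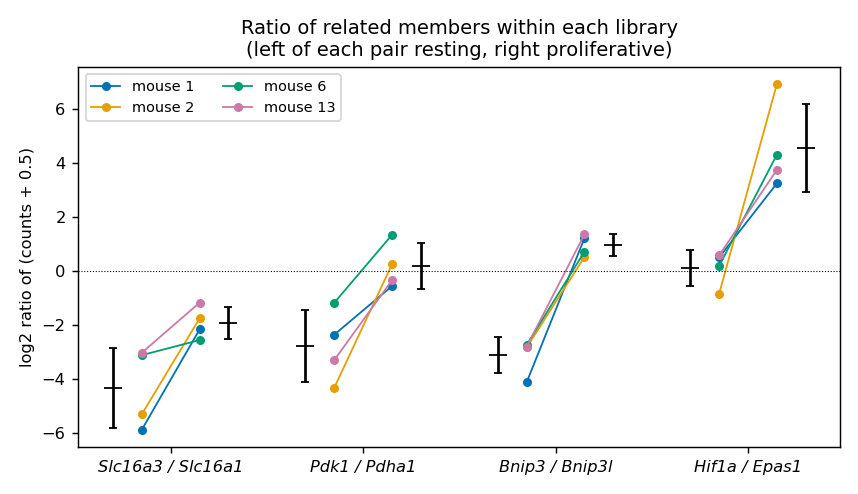
Log2 ratio of the counts (plus 0.5) of 2 related members within each library. In each pair the left points are the resting and the right points the proliferative libraries, lines join the libraries of a mouse, and black bars give the mean and SD of 4 libraries. All lines rise from the resting to the proliferative zone, most steeply for *Bnip3* over *Bnip3l* (from -3.13 to 0.94) and *Hif1a* over *Epas1* (from 0.10 to 4.54).

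The sexes were compared through the zone by sex term of the same kind of fit, with 2 mice of each sex. None of the 24 members had an adjusted p below 0.01 (0 of 24 had an unadjusted p below 0.05, and the lowest adjusted p was 0.746). Over all 3793 genes, edgeR called 0 at that threshold and 250 had an unadjusted p below 0.05. With 2 mice of each sex, this does not show that the sexes are alike.

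Genes next to the members in metabolism were described from lists of whole pathways. Beside the counts called in each list stand 6.93% (proliferative) and 11.0% (resting) of all genes tested. Among 32 further isozymes and transporters of glycolysis, 4 passed the filter and 1 was called, *Ldhd*, a D-lactate dehydrogenase of mitochondria, at 189 ± 34.4 CPM in the resting and 27.5 ± 10.4 CPM in the proliferative zone (log2 fold change 2.75, adjusted p = 0.000196). *Slc2a12*, *Bsg*, the chaperone of the lactate transporters, and *Slc16a4* had log2 fold changes of 0.93, -0.89 and -1.11 and were not called. Of the 15 genes of glycogen metabolism, 4 passed the filter and 2 were called higher in the proliferative zone. *Pgm2*, a phosphoglucomutase-family gene, stood at 7.04 ± 9.69 CPM in the resting and 64.3 ± 27.8 CPM in the proliferative zone (log2 fold change -3.14, adjusted p = 0.00605). *Pygl*, a glycogen phosphorylase, stood at 36.7 ± 20.1 and 126 ± 25.2 CPM (log2 fold change -1.72, adjusted p = 0.00810, and 0.0105 with the replicate block).

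The pentose phosphate pathway branches off glycolysis to make NADPH. Of its 8 genes, 5 passed and 1 was called, *G6pdx*, the enzyme of the first step, which was higher in the resting zone (60.5 ± 24.1 against 13.0 ± 8.13 CPM, log2 fold change 2.23, adjusted p = 0.00845, and 0.0146 with the replicate block). Of the 17 genes of the tricarboxylic acid cycle, 9 passed and 0 were called in either direction by edgeR, with a median log2 fold change of 0.20. The lowest adjusted p there was that of *Idh3g*, for a subunit of the NAD+-dependent isocitrate dehydrogenase (log2 fold change 0.81, adjusted p = 0.157). Of 12 genes of pyruvate import and the pyruvate dehydrogenase complex, 2 passed and 0 were called. They were *Mpc1*, a subunit of the mitochondrial pyruvate carrier, at -1.91 (adjusted p = 0.0156), and *Pdhb* at 0.62 (adjusted p = 0.294).

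Of 31 further HIF targets that are not members, 14 passed the filter. Of these, 9 were called higher in the proliferative zone (7 with the replicate block), against 6.93% of all genes tested, and 2 in the resting zone, against 11.0%. Their median log2 fold change was -1.78. *Car12*, a carbonic anhydrase of the cell surface, stood at 14.3 ± 7.38 CPM in the resting and 159 ± 39.1 CPM in the proliferative zone (log2 fold change -3.39, adjusted p = 0.000173). The collagen-modifying enzymes *Plod2*, a lysyl hydroxylase, and *P4ha1*, a prolyl hydroxylase, had log2 fold changes of -1.95 (adjusted p = 0.000618) and -2.50 (adjusted p = 0.000942). The 2 targets above the filter that were called higher in the resting zone were *Tfrc*, the transferrin receptor (log2 fold change 1.50, adjusted p = 0.000925), and *Hmox1*, the heme oxygenase that breaks down heme (3.68, adjusted p = 0.00223). Marker sums of macrophages (967 to 1132 against 193 to 485 CPM) and erythroid cells (1914 to 12224 against 0 to 1732 CPM) were also higher in the resting zone, and their part in these 2 differences was not tested. Without the filter, 11 targets were called higher in the proliferative zone and 3 in the resting zone. The third was *Lox*, the lysyl oxidase that cross-links collagen, at 91.9 ± 50.6 against 5.22 ± 8.32 CPM (log2 fold change 3.67, adjusted p = 4.97e-08). Of 15 further regulators of HIF, 8 passed and 1 was called, the chaperone gene *Hsp90ab1*, at 106 ± 22.1 CPM in the resting and 313 ± 47.7 CPM in the proliferative zone (log2 fold change -1.55, adjusted p = 0.000822).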

How the data were processed

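RNA of laser-microdissected resting and proliferative chondrocytes was amplified by 2 rounds of in vitro transcription and sequenced, with 8 libraries from 4 mice. Per the submitters' processing notes, the tools include HISAT2 2.1.0 and HTSeq 0.11.2, with genome build GRCm38. The authors deposited whole-number counts per gene without normalization, for 43629 genes. The strand setting of the counting is not given in the sources used here. A second deposited table, from the authors' own comparison, was used for gene symbols only. Its fold changes, p-values and scaled signal columns were not used.

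Zones, mice and sexes were taken from the labels. Counts were tested with edgeR 4.0.16 in R 4.3.3, using TMM factors, filterByExpr grouped by zone with min.count 10 and min.total.count 15, and the quasi-likelihood test with zone as the only term. P-values were adjusted over all genes tested by the Benjamini-Hochberg method, and a call required an adjusted p below 0.01 and a log2 fold change beyond 1. Members below the filter were tested in the same way over the 17492 genes with a count. Standard errors were derived from the log2 fold change and the F statistic. CPM were scaled by the TMM factors. In simulated counts for the zone comparison, run on 3793 genes, the test recovered 61 of 80 genes changed by a log2 fold of 2 and 109 of 110 changed by 3, and called 1 of 3295 unchanged genes.

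Libraries with the same number come from the same animal by the labels, so the mouse number pairs them. After removal of the zone means, the libraries of a mouse correlated across genes at 0.165, 0.0136, 0.137 and 0.0577 for mice 1, 2, 6 and 13. A replicate block on the mouse was an alternative, since the study's methods name no block. Pairs of genes were compared by exact permutation. Exon overlaps came from GENCODE M21, and promoter windows from RefSeq. Python 3.11.15, scipy 1.17.1 and matplotlib 3.10.9 were used.

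The members, the lists and the rules were chosen with earlier results of these data known. Every listed gene is named. Of each other pathway list, up to 4 genes with the lowest adjusted p are named, plus those of a count of 5 or fewer. Alternatives were the likelihood ratio test, DESeq2 1.42.0, other scaling factors, filters and thresholds, the block, libraries thinned to the smallest total, partner counts added, and each library left out in turn. Leaving out *Pfkp* from the sum and leaving out both libraries of mouse 6 were added after the data were seen.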

Additional observations from a re-analysis of the deposited data

Results flagged for a closer look

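In 6 of 69 groups of 4 libraries, 1 library of a zone passed Dixon's test against the other three at the 95% level, which chance does in about 1 of 20 groups. *Hif1a* measured 22.2 CPM in the resting library of mouse 2, where the other resting libraries lay between 103 and 117 CPM. *Pgk1* measured 41.8 CPM in the resting library of mouse 6, against 18.2 to 19.6 CPM in the others. *Eno1* measured 29.4 CPM in the resting library of mouse 13, against 65.7 to 72.9 CPM. In the proliferative zone of mouse 13, *Gapdh* measured 274 CPM (others 225 to 233) and *Slc16a3* measured 66.4 CPM (others 33.6 to 37.7). *Slc2a3* measured 6.41 CPM in the proliferative library of mouse 6 and 0 in the others. With the others at 0 any count meets that test, and these 4 counts lie below the 12.4 CPM that a count of 0 allows in the proliferative library of mouse 13, so they do not show that the library stands apart. The libraries of mouse 13 were the shallowest of their zones.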

How the results depend on the processing

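Under the alternatives other than leaving out a library, 307 values of single genes kept their direction and side of the threshold, 20 passed the threshold, 10 no longer passed it and 21 changed sign. Members called higher in the proliferative zone fell from 12 to 4 when 10 counts were required in every library. *Slc2a1*, *Pfkfb3*, *Pgk1*, *Eno1*, *Slc16a3*, *Bnip3*, *Egln1* and *Higd1a* each had a resting library below 10 counts and were then not tested. Without a filter 15 were called in that direction, with *Pdk1*, *Hif1a* and *Pgam1* added. Members called higher in the resting zone rose from 1 to 2 with the likelihood ratio test or a threshold of 0.05, and fell to 0 without both libraries of mouse 6. Over all genes, calls were 468 (proliferative) and 829 (resting) without a filter, 137 and 125 with 10 counts in every library, and 427 and 635 at a threshold of 0.05. DESeq2 called 686 in the resting zone. Members below the filter gave 2 calls in the proliferative and 1 in the resting zone with the likelihood ratio test, 2 in the proliferative zone with upper quartile factors, 1 in the resting zone without scaling factors, and 3 and 1 at a threshold of 0.05. The replicate block turned the 12 calls into 9, as given above, and 0 other calls of members changed. Without a filter, further glycolysis isozymes gave 2 calls in the resting zone, the pyruvate dehydrogenase list 1 in the proliferative zone and glycogen metabolism 1 in the resting zone. With the block, the pentose phosphate list gave 0 calls and glycogen metabolism 1. The summed enzyme level had a log2 ratio of -0.85, of -1.36 without *Pfkp* and of -0.92 without *Gapdh* and *Aldoa*. The differences of the 4 pairs, -2.42, -2.96, -4.07 and -4.44, are the same with the replicate block, where the exact test cannot give a p below 0.125. With a pseudocount of 2, *Slc16a3* over *Slc16a1* was -1.57 (exact p = 0.0571). Other causes of changed calls were not tested.

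Signs changed for genes that were not called. *Gapdh* was 0.11 without scaling factors, 0.011 with 10 counts in every library and 0.038 with partner counts. *Pfkm* was 0.078 with DESeq2, 0.083 with relative log expression factors and 0.27 without scaling factors. *Vhl* was 0.13 without scaling factors and 0.22 with thinned libraries, where *Gpi1* was 0.047 and *Bnip3l* 0.052. *Vegfa* was -0.045 with upper quartile factors and -0.051 without a filter, and *Mxi1* -0.086 and -0.098. *Hk1* was -0.26 without mouse 6. *Ndrg1* was -0.24 with partner counts. *Adm*, with 7 counts, was 0.13 with DESeq2, 0.078 with relative log expression factors, 0.27 without scaling factors, 0.61 with the replicate block and 2.24 with thinned libraries.

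With each library left out in turn, calls over all genes ranged from 183 to 349 (proliferative) and from 255 to 472 (resting). Members called ranged from 8 to 13 and from 0 to 2, and those below the filter from 0 to 2 and from 0 to 0. The range was -0.090 to 0.70 for *Hk1*, -0.60 to 0.28 for *Pfkm*, -0.13 to 0.031 for *Gapdh*, -0.49 to 0.19 for *Vhl*, -0.21 to 0.39 for *Vegfa*, -1.05 to 2.83 for *Adm*, -0.32 to 0.86 for *Ndrg1* and -0.33 to 0.37 for *Mxi1*. The pairs ranged from -2.85 to -1.90 (*Slc16a3* over *Slc16a1*), -3.50 to -2.45 (*Pdk1* over *Pdha1*), -4.21 to -3.74 (*Bnip3* over *Bnip3l*) and -4.88 to -3.65 (*Hif1a* over *Epas1*), where the exact test cannot give a p below 0.0571. Depth limits the members with few counts most, as a count of 0 allows up to 14.7 CPM in the shallowest library.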
